A study of Mus musculus with 8 samples.

Results

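The comparison covered 4 of the 8 libraries of the series, the 2 libraries named D8 against the 2 named D1, described across all 19173 genes tested. RNA sequencing was run on R1, an established line of mouse embryonic stem cells, cultured with serum and LIF (the cytokine that holds such cells undifferentiated). D1 cells had not yet met ML-792, which blocks the E1 enzyme of the SUMO pathway. D8 cells had been exposed to it for 48 h from D1 to D3, at a dose labelled 2.5 mM, and were then kept for 5 days until D8, where the labels again call them control. The D3 libraries (labelled ML-792) closed that first exposure, and the D10 libraries (labelled ML-792) closed a further 48 h exposure that began at D8. They entered the fit to share the estimate of spread, and D3 values stand beside D8 values below. The labels give no cells kept untreated until D8, so time in culture and the earlier exposure cannot be told apart. For D1 replicate 2 the time tag reads day 0, although its title reads D1. Nothing in the labels says that the 2 libraries of a group came from separate cultures, and the spread that p-values rest on may therefore be technical.

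SUMO is a small protein that is attached to lysines of other proteins. The E1 enzyme, a pair of Sae1 and Uba2, activates it. Many of its substrates are chromatin proteins that keep genes and repeats silent. Embryonic stem cells can turn toward primitive endoderm, the layer of the blastocyst that builds the yolk sac, under GATA and SOX17 factors and FGF and PDGF receptors. A few cells of such cultures can also pass into a 2-cell-like state, in which genes of the cleavage embryo such as the Zscan4 family are read.

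The libraries held 21040992 and 32610314 reads in genes at D1 and 30527519 and 33036253 at D8. The log2 CPM (CPM is a read count scaled to a common library total, here with TMM factors) of the 2 libraries correlated across genes at r = 0.988 for D1 and 0.9808 for D8, and genes are not independent replicates. D8 replicate 2 stood apart: its difference from the D1 mean rose with the GC content of the gene, with a Spearman correlation of 0.606 over 11608 coding genes, against 0.131 for D8 replicate 1. These are descriptions across genes, which share the library. The smooth muscle gene Acta2 stood at 0.43 and 0.435 CPM at D1 and at 0.262 and 11.3 CPM at D8, and its neighbour in function Tagln at 3.63 and 2.92 CPM and then 1.99 and 21.3 CPM, so both were high in D8 replicate 2 alone. The stem cell markers Pou5f1, Sox2, Nanog, Zfp42, Esrrb and Utf1 summed to 3724 and 3905 CPM at D1 and to 3592 and 3634 CPM at D8. Fibroblast markers that a feeder layer would bring (Col1a1, Col1a2, Col3a1, Thy1, Postn and Lum) summed to 5.97 and 7.05 CPM at D1 and 7.55 and 12.7 CPM at D8. Thy1 made most of each sum, at 5.16 and 5.96 CPM at D1 and 5.95 and 7.14 CPM at D8. Col1a2 stood at 0.334 and 0.466 CPM and then 0.654 and 4.02 CPM, and Col1a1 at 0.478 and 0.621 CPM and then 0.785 and 1.48 CPM. Both were highest in D8 replicate 2 among the D1 and D8 libraries. Postn and Lum had 0 reads in all 4 libraries, and Col3a1 had 0 reads at D1 and 5 and 2 at D8.

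Few genes passed the test between D8 and D1. Of 19173 genes, 34 passed an adjusted p under 0.05 (0.177%), of which 27 rose (0.141%) and 7 fell (0.0365%), in edgeR's quasi-likelihood test with Benjamini-Hochberg adjustment. The rises included genes of primitive endoderm, among them the transcription factors Gata4, Gata6 and Sox17 and the endocytic proteins Dab2 and Cubn, by 4.86-fold to 9.5-fold. The falls held Dppa2, a chromatin factor of early embryos, and a pair of zinc finger genes from one stretch of chromosome 4. At the end of the exposure itself, D3 against D1, 2496 genes passed the same test (13.0%). All 34 genes had no overlap between the D1 and the D8 libraries, which alone is common: both D8 libraries lay above both D1 libraries in 4132 genes (21.6%) and below them in 3896 (20.3%). The median log2 fold change over all genes was -0.00, with quartiles of -0.28 and 0.26.

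The adjusted p of the 34 genes ran from 0.041 to 0.048, close to the threshold. At an unadjusted p under 0.05 there were 2311 genes (12.1%), of which 1410 were higher (7.35%) and 901 lower (4.70%). With the replicate number as a block, 535 genes passed (2.79%), 403 higher (2.10%) and 132 lower (0.688%), and all 34 were among them. The block was taken from the data, since no label says what the number marks. Deviations of same-numbered libraries correlated at 0.24 between D1 and D8, and at 0.101 to 0.498 over the 6 pairs of groups. The genes called when 1 library was left out were not all among the 34. The number called rested on single libraries. It was 0 without D1 replicate 1 (smallest adjusted p 0.5, with 973 genes at an unadjusted p under 0.05), 0 without D1 replicate 2 (0.18 and 2259 genes) and 0 without D8 replicate 2 (0.13 and 1374 genes). Without D8 replicate 1 it was 436, without either D3 library 24, and without D10 replicate 1 or 2 it was 20 or 19. A fit of the 4 D1 and D8 libraries alone called 2 genes. DESeq2 called 434 of 16261 genes with an adjusted p (2.67%), 284 higher (1.75%) and 150 lower (0.922%), and held all 34. Each of the 34 kept its direction under all 17 alternatives, which refit the same libraries. With no overlap between D1 and D8 libraries in any of the 34, leaving out 1 library could hardly reverse a direction. Correcting for GC content and gene length raised the number to 84, with 33 of the 34 among them.

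**Figure D1:**
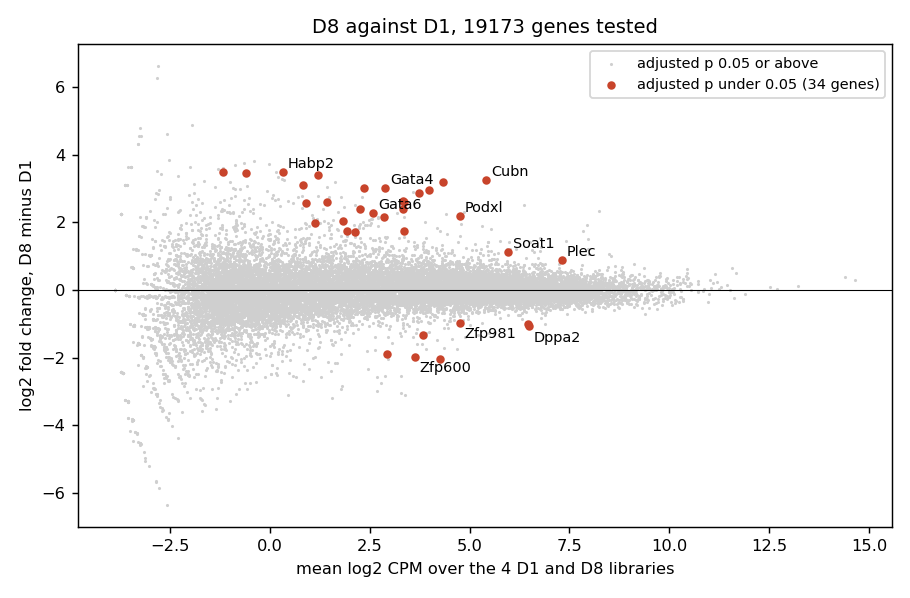
Log2 fold change of D8 over D1 (vertical axis) against mean log2 CPM of the 4 libraries (horizontal axis), with 1 point per tested gene. The 34 genes at an adjusted p under 0.05 are red; 27 lie above 0 and 7 below, and most genes lie near 0.

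The transcription factors of primitive endoderm are given first. Gata4, which drives endoderm genes, stood at 2.01 and 3.35 CPM in the D1 libraries and at 13.7 and 30.1 CPM at D8. The groups did not overlap, and the D8 libraries themselves differed by more than the whole D1 range. It rose by 3.01 ± 0.44 (SE) on the log2 scale, adjusted p = 0.048 by edgeR's quasi-likelihood test, and at D3 it stood 0.50 ± 0.43 above D1 (adjusted p = 0.51). Gata6, the earliest factor of this lineage, stood at 2.63 and 2.73 CPM at D1 and 11 and 15.1 CPM at D8. Its rise was 2.28 ± 0.26 (adjusted p = 0.041). It had already risen by D3, by 1.35 ± 0.25 (adjusted p = 0.011, edgeR), with 5.85 and 7.86 CPM there. Sox17, the SOX factor of endoderm, stood at 1.67 and 1.99 CPM at D1 and 9.77 and 19.9 CPM at D8, again without overlap. It rose by 3.01 ± 0.42 (adjusted p = 0.046), against 0.77 ± 0.42 at D3 (adjusted p = 0.27). Foxa2, another endoderm factor, stood at 0.143 and 0.745 CPM at D1 and 2.12 and 7.14 CPM at D8. It did not pass in the main edgeR fit, of 8 libraries without the block (3.26 ± 0.74, adjusted p = 0.17). With the block it passed (adjusted p = 0.011, edgeR).

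Receptors of the lineage came next. Pdgfra, the PDGF receptor that marks primitive endoderm, stood at 3.63 and 4.62 CPM at D1, 10.1 and 14.3 CPM at D3 and 22.5 and 27.5 CPM at D8. All D8 values lay above all D1 values, and the D3 values lay between them. It rose from D1 to D8 by 2.59 ± 0.26 (adjusted p = 0.041) and from D1 to D3 by 1.56 ± 0.25 (adjusted p = 0.0071). Fgfr2, the FGF receptor of endoderm and trophoblast, had the other order: 2.29 and 1.86 CPM at D1, 12.6 and 12.2 CPM at D3 and 6.01 and 7.65 CPM at D8. Its difference from D1 was 2.59 ± 0.25 at D3 (adjusted p = 0.0016) and 1.73 ± 0.24 at D8 (adjusted p = 0.046). The annotated span of Fgfr2 overlaps 33 genes of the opposite strand, and Gata6, Sox17, Pdgfra, Dab2 and Cubn each overlap 1 or 2. The strand setting of the counting was not found in the labels, so reads of the 2 strands may be mixed in these genes.

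Dab2 and Cubn belong to the endocytic machinery with which the visceral yolk sac takes up protein and vitamin B12. Dab2, an adaptor of clathrin, stood at 5.11 and 8.26 CPM at D1, 6.06 and 11.1 CPM at D3 and 55.3 and 67.6 CPM at D8. Its rise to D8 was 3.19 ± 0.35, a 9.11-fold level (adjusted p = 0.041), and at D3 it stood 0.35 ± 0.34 above D1 (adjusted p = 0.55). Cubn, the receptor cubilin, stood at 10.1 and 18 CPM at D1, 17.4 and 36.8 CPM at D3 and 128 and 141 CPM at D8. It was the most abundant endoderm gene among those that passed, at 135 ± 8.94 CPM (SD, n = 2) against 14.1 ± 5.59, and rose 9.5-fold (3.25 ± 0.42, adjusted p = 0.044). The partners of cubilin, Amn and Lrp2, did not pass in the main edgeR fit and passed with the block (adjusted p = 0.026 and 0.0072, edgeR). Amn stood at 1.48 and 2.08 CPM at D1 and 4.31 and 11.1 CPM at D8 (2.10 ± 0.49, adjusted p = 0.17), and Lrp2 at 59.9 and 67.4 CPM and then 116 and 175 CPM (1.19 ± 0.21, adjusted p = 0.09). Srgn, a proteoglycan core protein of the endoderm list, stood at 3.97 and 7.48 CPM at D1 and 40.3 and 49.7 CPM at D8, a rise of 2.96 ± 0.36 (adjusted p = 0.044).

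The list also held basement membrane genes of parietal and visceral endoderm, and of those named next none passed in the main edgeR fit. Lama1, the laminin alpha chain of early basement membrane, stood at 106 and 148 CPM at D1 and 395 and 575 CPM at D8, without overlap (1.93 ± 0.29, adjusted p = 0.05, at the threshold and not under it). Lamb1, its beta chain, stood at 106 and 150 CPM and then 328 and 531 CPM (1.74 ± 0.29, adjusted p = 0.071). The type IV collagen genes Col4a1 and Col4a2 stood 2.35 ± 0.39 and 2.52 ± 0.42 above D1 (adjusted p = 0.073 and 0.074). With the block Lama1, Lamb1, Col4a1 and Col4a2 passed, with adjusted p of 0.00015, 0.00053, 0.00018 and 0.00018 in edgeR. Their D8 values of 474 and 932 CPM and of 132 and 281 CPM were higher in replicate 2 than in replicate 1. Nid1, the linker nidogen, was the 1 member of the list below D1 in the fit: 78.2 and 104 CPM at D1, 22 and 26.2 CPM at D3 and 92.5 and 86.4 CPM at D8. It had fallen at D3 (-1.92 ± 0.22, adjusted p = 0.0025) and did not differ detectably from D1 at D8 (-0.03 ± 0.21, 95% interval -0.50 to 0.44).

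Of the 27 genes in the list of primitive and extraembryonic endoderm, 24 were tested, and Ttr, Afp and Apoa1 were not. The gene lists were chosen with earlier results of these data known. List counts set beside the share of all genes are therefore descriptions and not tests. Of the 24, 8 rose, beside 0.141% of all genes tested, and none fell, in edgeR's quasi-likelihood test. With the replicate block 20 of the 24 rose, beside 2.10% of all genes. Without the block 21 were higher at an unadjusted p under 0.05, beside 7.35% of all genes. Both D8 libraries lay above both D1 libraries in 22 of the 24, beside 21.6% of all genes, and the median log2 fold change was 2.02, beside -0.00 over all genes. Each D8 library showed it: the list's median difference from the D1 mean was 1.58 in D8 replicate 1 and 2.33 in D8 replicate 2. In the D3 libraries it was 0.16 and 0.56, and in the D10 libraries 1.54 and 2.10. Summed over the list, the level was 1116 and 1533 CPM at D1 and 2972 and 4613 CPM at D8. In bulk RNA, a larger share of endoderm-like cells and more RNA of these genes per cell cannot be told apart. The number that rose was 0 without D1 replicate 1, D1 replicate 2 or D8 replicate 2, 18 without D8 replicate 1 and 20 by DESeq2, beside 1.75% of all genes with an adjusted p there.

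**Figure D2:**
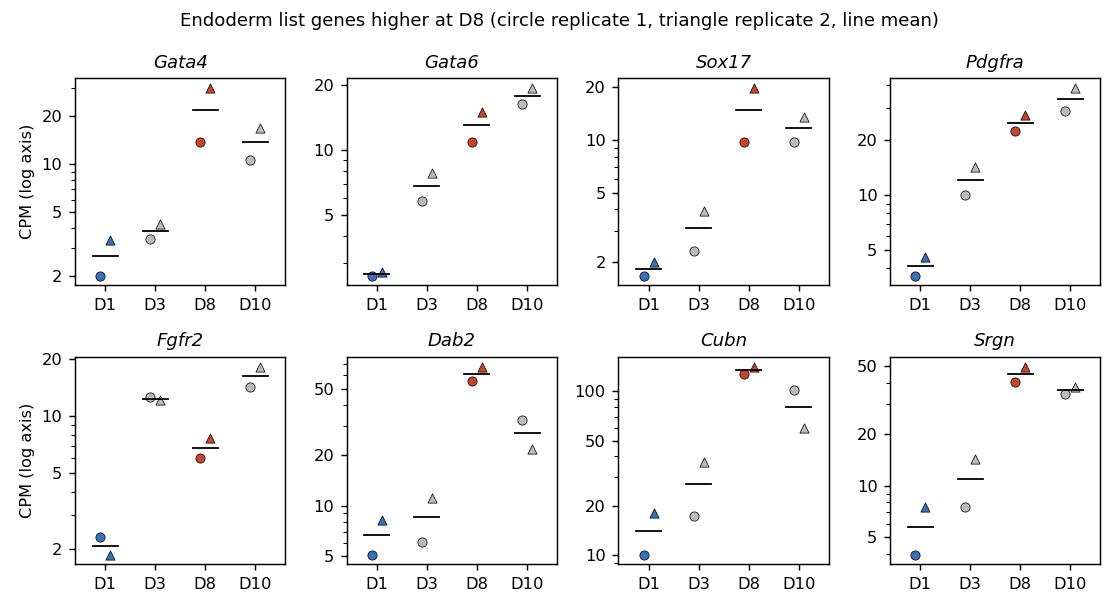
Level in CPM (log axis) of endoderm genes in each library of the 4 groups; circles are replicate 1, triangles replicate 2 and lines the mean. Both D8 libraries lie above both D1 libraries for Gata4, Gata6, Sox17, Pdgfra, Fgfr2, Dab2 and Cubn.

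The start regions of 15 of the 27 risen genes were in the RefSeq promoter table of build GRCm38.p6, which holds 250 bases before a gene's start and 50 after it. They were searched on both strands for AGATAA, a sequence that GATA factors bind. A gene was counted where any of its entries held the letters, and the match of Slc39a8 lies in only 1 of its 2 entries. AGATAA was found in 3 of the 15 genes, Dab2, Lad1 and Slc39a8 (20%), against 976 of 12237 tested genes in the table (7.98%) and 12.7% of all genes in it. Among the called endoderm list genes with an entry it was found in 1 of 5, and among the fallen genes in 0 of 6. Gata4, Gata6 and Sox17 had no entry. CATTGT, a sequence of SOX factors, was found in 1 of the 15, Tfec (6.67%), against 9.18% of tested genes. It was found in 0 of the 5 endoderm list genes and 1 of the 6 fallen genes. A match is a description of letters, not a bound site. Shown are Dab2 and Lad1, which hold a match (in capitals, as its reverse complement), and Cubn, the most abundant of the risen endoderm genes, which holds none; Dab2 lies at chr15:6299539-6299838 on the plus strand, Lad1 at chr1:135818348-135818647 on the plus strand and Cubn at chr2:13491827-13492126 on the minus strand.
Dab2: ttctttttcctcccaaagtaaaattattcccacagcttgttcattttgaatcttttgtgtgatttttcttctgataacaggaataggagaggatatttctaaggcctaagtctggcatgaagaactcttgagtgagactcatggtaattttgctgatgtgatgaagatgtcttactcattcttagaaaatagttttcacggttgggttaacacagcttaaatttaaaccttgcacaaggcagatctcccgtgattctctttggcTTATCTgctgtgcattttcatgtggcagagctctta
Lad1: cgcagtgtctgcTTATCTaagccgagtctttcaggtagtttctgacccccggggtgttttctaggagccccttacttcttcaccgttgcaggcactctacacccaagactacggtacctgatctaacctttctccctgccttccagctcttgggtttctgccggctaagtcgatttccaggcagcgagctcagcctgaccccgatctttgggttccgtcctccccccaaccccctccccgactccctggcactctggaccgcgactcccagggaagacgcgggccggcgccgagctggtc
Cubn: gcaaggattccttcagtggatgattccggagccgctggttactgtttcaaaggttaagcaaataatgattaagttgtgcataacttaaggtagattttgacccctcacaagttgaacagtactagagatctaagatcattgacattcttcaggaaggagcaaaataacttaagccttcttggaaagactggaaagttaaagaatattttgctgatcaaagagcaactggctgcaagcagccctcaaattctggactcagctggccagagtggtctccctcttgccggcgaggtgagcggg

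The other risen genes had several roles. Amot, a protein of cell junctions and Hippo signalling, stood at 4.49 and 5.4 CPM at D1 and 26.6 and 46.6 CPM at D8 (2.88 ± 0.30, adjusted p = 0.041). Podxl, a sialomucin of apical membranes, stood at 10.1 and 15.8 CPM and then 42.2 and 76.5 CPM (2.19 ± 0.31, adjusted p = 0.046). Cdh6, a cadherin, Marveld3, a tight junction protein, and Cemip, which breaks down hyaluronan, rose by 2.57, 1.98 and 2.39. A few further transcription or signalling genes rose: Foxq1, a forkhead factor, by 3.39 ± 0.48, Tfec, of the MiT family, by 3.11 ± 0.39, and Nrg1, a ligand of ErbB receptors, by 1.75 ± 0.24. The membrane transport gene Slc39a8, a zinc and manganese importer, rose by 2.05 ± 0.24, and Soat1, which esterifies cholesterol, by 1.12 ± 0.15 from 37.9 and 47.1 CPM to 89.1 and 96.2 CPM. Stard8, Rhpn1, Plbd1, Spink1 and Habp2 rose by 2.63, 1.71, 2.60, 2.16 and 3.48. P3h2 (3.46) and BC025446 (3.49) rested on 9 and 5 reads in the D1 libraries together, against 117 and 69 at D8.

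The D3 value of these genes differed from gene to gene. Tfec, Slc39a8, P3h2 and BC025446 had passed the test at D3 as well, at 1.67, 1.52, 2.09 and 2.90 above D1 (adjusted p = 0.027, 0.0065, 0.026 and 0.0083, edgeR). With the block Foxq1 and Srgn passed at D3 too, at 1.47 and 0.92 above D1 (adjusted p = 0.025 and 0.015, edgeR). Lad1 and Plec, both of the anchorage of epithelial cells to the basement membrane, had moved the other way. Lad1 stood at 4.16 and 4.69 CPM at D1, 1.26 and 1.18 CPM at D3 and 18.5 and 28.2 CPM at D8, and Plec at 109 and 125 CPM, 68.6 and 64.3 CPM and then 216 and 217 CPM. So each had its lowest levels at D3 and its highest at D8. Lad1 fell by 1.86 ± 0.28 at D3 (adjusted p = 0.0057) and stood 2.40 ± 0.26 above D1 at D8 (adjusted p = 0.041). Plec fell by 0.81 ± 0.13 (adjusted p = 0.0062) and then stood 0.89 ± 0.13 above D1 (adjusted p = 0.046).

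The 7 genes that fell held 5 coding genes and 2 lincRNAs. Dppa2, which with Dppa4 marks bivalent promoters and acts upstream of Dux, stood at 140 and 122 CPM at D1, 220 and 172 CPM at D3 and 62.6 and 61 CPM at D8. It was above D1 at D3 (0.58 ± 0.15, adjusted p = 0.039) and below it at D8 (-1.08 ± 0.15, adjusted p = 0.046), so the D8 level was 0.472 of that at D1. Its partner Dppa4 did not pass: 118 and 127 CPM at D1 and 113 and 105 CPM at D8 (-0.16 ± 0.13, 95% interval -0.45 to 0.13). Gabarapl2, an autophagy protein of the Atg8 family, stood at 136 and 115 CPM at D1 and 59.9 and 63.2 CPM at D8 (-1.02 ± 0.13, adjusted p = 0.044). Myo1f, an unconventional myosin, stood at 41 and 36.2 CPM at D1, 15.2 and 15.9 CPM at D3 and 8.86 and 10 CPM at D8. It fell by 1.31 ± 0.27 at D3 and by 2.03 ± 0.28 at D8 (adjusted p = 0.017 and 0.044). The lincRNAs 1110002J07Rik and Eprn fell by 1.90 ± 0.27 and 1.33 ± 0.18 (adjusted p = 0.046 and 0.044).

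Zfp600 and Zfp981 are zinc finger genes of chromosome 4, from a stretch rich in such repeated genes. Zfp600 (mm10, chr4:146156824-146198755) stood at 25.7 and 23.6 CPM at D1, 37.9 and 35.3 CPM at D3 and 7.75 and 4.82 CPM at D8. Its fall from D1 to D8 was 1.97 ± 0.26 (adjusted p = 0.044). With the block its rise from D1 to D3 passed as well, at 0.57 ± 0.17 (adjusted p = 0.04, edgeR). Zfp981 (chr4:146502027-146539395) stood at 37.6 and 38.2 CPM at D1, 85.8 and 85.1 CPM at D3 and 20.1 and 18.6 CPM at D8. It rose at D3 by 1.17 ± 0.12 (adjusted p = 0.002) and was 0.97 ± 0.12 lower than D1 at D8 (adjusted p = 0.044). After correction for GC content and length the Zfp981 difference was -0.48 with an adjusted p of 0.47, and that of Zfp600 was -1.60 (adjusted p = 0.009). Both genes overlap genes of the opposite strand, and reads of near-identical copies could be split between them. A stretch from chr4:145510759-147848366, chosen after the values were seen and so not tested, held 22 tested coding genes with Zfp, Rex2 or Gm names. All 22 were below D1, with a median of -0.94 and a range of -1.97 to -0.34, and the 2 above passed. Their median GC content was 36.1%, against 50.1% over coding genes, and their median difference was -0.40 in D8 replicate 1 and -1.54 in D8 replicate 2. With the GC and length correction it was -0.59. The deviation of each D3 library from the mean of all 8 fell with GC content over coding genes (Spearman correlation -0.355 and -0.328). At D1 these correlations were -0.152 and 0.106. The part of GC content in the pattern at D8, and in the D3 values of Zfp600 and Zfp981, was not tested. The start regions of the pair are shown because of how alike they are: 234 of 329 aligned columns (71.1%) are identical, and capitals mark runs of at least 12 identical bases, the longest of 21. They lie at chr4:146514670-146514969 (Zfp981) and chr4:146156577-146156876 (Zfp600), both on the plus strand of GRCm38.p6; the Zfp981 start in RefSeq lies inside the span that GENCODE gives the gene, and of 2 entries for Zfp600 the one nearest its annotated start was taken.
Zfp981: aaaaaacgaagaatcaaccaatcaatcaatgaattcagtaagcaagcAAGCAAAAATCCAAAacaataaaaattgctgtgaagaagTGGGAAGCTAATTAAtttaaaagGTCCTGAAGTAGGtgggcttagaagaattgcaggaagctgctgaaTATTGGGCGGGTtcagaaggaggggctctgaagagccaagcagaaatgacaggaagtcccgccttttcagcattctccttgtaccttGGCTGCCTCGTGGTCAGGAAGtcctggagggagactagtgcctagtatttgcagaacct
Zfp600: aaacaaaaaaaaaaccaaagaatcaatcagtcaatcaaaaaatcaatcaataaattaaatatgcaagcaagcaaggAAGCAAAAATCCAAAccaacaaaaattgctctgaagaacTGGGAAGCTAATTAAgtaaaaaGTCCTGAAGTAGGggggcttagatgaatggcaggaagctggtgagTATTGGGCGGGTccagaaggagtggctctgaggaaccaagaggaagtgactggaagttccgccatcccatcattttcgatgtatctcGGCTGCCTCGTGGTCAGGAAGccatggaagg

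**Figure D3:**
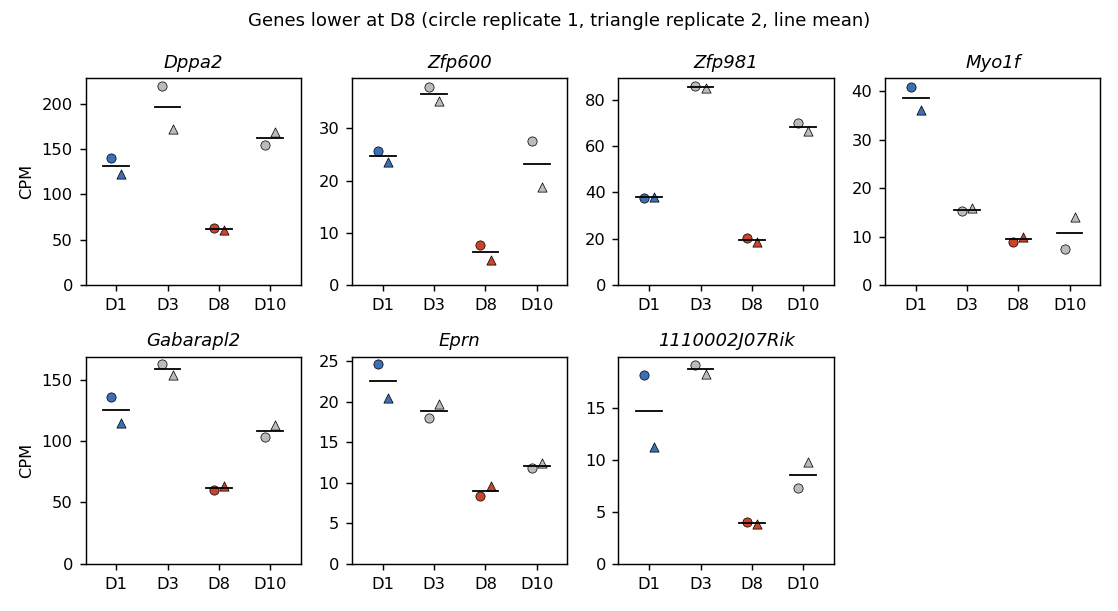
Level in CPM (linear axis from 0) in each library for the 7 genes that fell from D1 to D8; circles are replicate 1, triangles replicate 2 and lines the mean. Both D8 libraries lie below both D1 libraries in each panel, as for Dppa2 with 62.6 and 61 CPM against 140 and 122 CPM.

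The genes of the 2-cell-like state lay below D1 at D8, and none passed in the main edgeR fit. Zscan4c stood at 24.4 and 12.7 CPM at D1, 641 and 224 CPM at D3 and 2.09 and 3.34 CPM at D8 (-2.76 ± 0.53, adjusted p = 0.11). Zscan4d stood at 44.8 and 19.5 CPM at D1 and 2.71 and 4.63 CPM at D8 (-3.12 ± 0.63, adjusted p = 0.13). So D8 was lower than D1 for genes that were many times higher at D3. Zscan4a had the smallest adjusted p of the list (-3.04 ± 0.52, adjusted p = 0.081). With the block Zscan4a, Zscan4c and Zscan4d passed, with adjusted p of 0.0065, 0.015 and 0.015 in edgeR. Zfp352 and Duxf3, the latter the Dux gene that starts the program, rested on few reads at D8: 0.163 and 0.386 CPM, and 0.0981 and 0.0964 CPM, against 1.72 and 1.92 CPM, and 0.287 and 0.466 CPM, at D1 (adjusted p = 0.16 and 0.33). Zfp352 passed with the block (adjusted p = 0.045, edgeR).

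Of 40 genes in the 2-cell-like list, also chosen with earlier results of these data known, 32 were tested. None passed (edgeR), and with the replicate block 10 fell, beside 0.688% of all genes. At an unadjusted p under 0.05, 25 were lower, beside 4.70% of all genes, and 31 of 32 lay below D1 without overlap, beside 20.3%. The median log2 fold change was -2.15, in D8 replicate 1 -2.56 and in D8 replicate 2 -1.60. Several of these genes are members of multi-copy families, whose reads could be split between copies. The number that fell was 25 with no filter on low counts, 15 by DESeq2 (beside 0.922% there), 4 without either D3 library and 0 without any other single library.

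Among the pluripotency genes Dppa2, described above, passed in the main edgeR fit and the others did not. Pou5f1 stood at 1079 and 1368 CPM at D1 and 1198 and 1320 CPM at D8 (0.04 ± 0.15, 95% interval -0.31 to 0.39), and Sox2 at 300 and 350 CPM and then 369 and 381 CPM (0.21 ± 0.16, -0.16 to 0.58). Nanog stood at 787 and 739 CPM at D1 and 516 and 536 CPM at D8, without overlap, but did not pass (-0.54 ± 0.24, adjusted p = 0.41). Tfcp2l1, Esrrb and Fgf4 stood 0.38, 0.43 and -0.11 from D1, with intervals of 0.08 to 0.68, 0.11 to 0.74 and -0.48 to 0.25. Of 25 naive pluripotency genes tested none passed in edgeR (median 0.10), and 2 did with the block (beside 2.79% of all genes). At an unadjusted p under 0.05, 5 were higher and 2 lower (beside 7.35% and 4.70%), and DESeq2 called 2 (beside 2.67%). Without overlap, 9 lay above D1 and 7 below it (beside 21.6% and 20.3%). Of 24 general pluripotency genes 1 fell, Dppa2 (median 0.08), with or without the block (beside 0.688% and 0.0365% of all genes). Dppa3, known from germ cells and naive cells, stood at 1.05 and 1.21 CPM at D1 and 3.43 and 11.9 CPM at D8 (2.75 ± 0.73, adjusted p = 0.22 in edgeR, and 0.017 with the block).

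**Figure D4:**
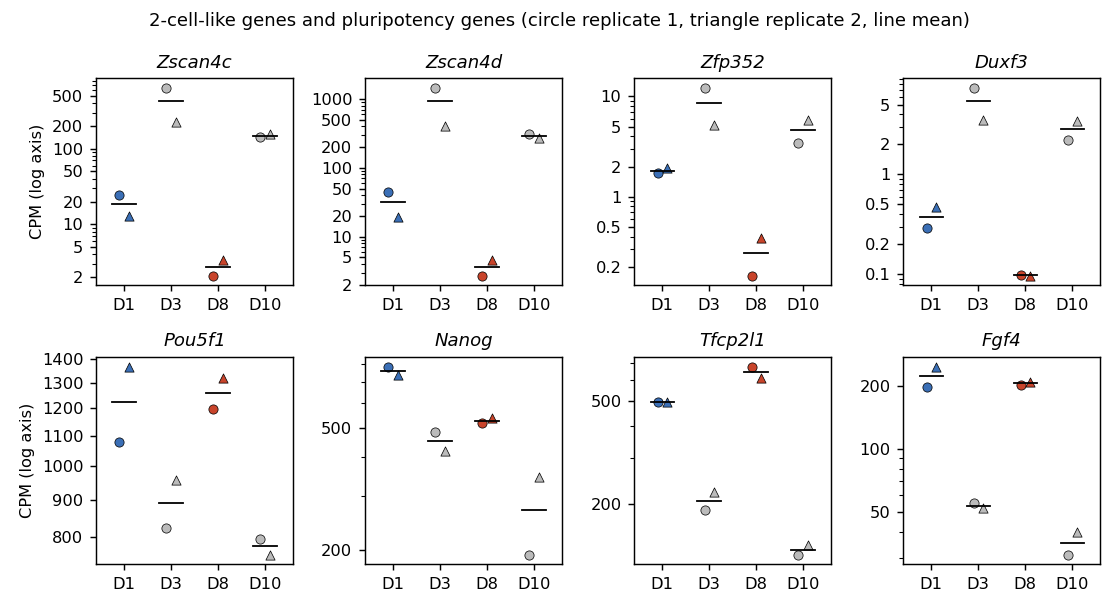
Level in CPM (log axis) of 2-cell-like genes (upper row) and pluripotency genes (lower row) in each library; circles are replicate 1, triangles replicate 2 and lines the mean. The 2-cell-like genes are lowest at D8. The D8 levels of Pou5f1 and Fgf4 lie near those of D1, and those of Nanog lie below (516 and 536 CPM against 787 and 739 CPM).

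Of 29 tested genes of the SUMO pathway none passed in edgeR (median -0.10). With the block 1 did, the protease Senp3 (adjusted p = 0.03, edgeR), beside 2.79% of all genes. At an unadjusted p under 0.05, 3 were lower and 2 higher (beside 4.70% and 7.35%), and DESeq2 called 1 (beside 2.67%). Uba2, the larger E1 subunit, stood at 707 and 750 CPM at D1 and 609 and 634 CPM at D8 (-0.23 ± 0.13, 95% interval -0.51 to 0.06), and Sae1, its partner, at 0.18 ± 0.15 (-0.17 to 0.53). Sumo2 stood at -0.22 ± 0.21 (-0.70 to 0.26). The largest differences of the list were those of Senp3 (-0.63 ± 0.14, adjusted p = 0.15) and of Pml, the scaffold of PML bodies (0.51 ± 0.14, adjusted p = 0.23). Of 37 genes of heterochromatin and silencing none passed in edgeR, with the block or in DESeq2 (median -0.12), and 3 were lower and 0 higher at an unadjusted p under 0.05. Setdb1, the H3K9 methyltransferase, stood at -0.16 ± 0.11 (-0.41 to 0.10) and its partner Atf7ip at 0.12 ± 0.17 (-0.26 to 0.51). The DNA methyltransferases Dnmt3a and Dnmt3b stood at -0.39 ± 0.14 (-0.69 to -0.08) and 0.28 ± 0.16 (-0.09 to 0.65), with adjusted p of 0.32 and 0.51. The widths of these intervals say how large a change could have gone unseen: the median SE was 0.17 for genes of at least 10 CPM and 0.28 over all.

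Other lists held at most 1 gene each that was called in the main edgeR fit. For the list counts that follow, the shares over all genes are 12.1% at an unadjusted p under 0.05 (7.35% higher, 4.70% lower), 2.79% with the block and 2.67% by DESeq2. Of 24 trophoblast genes 1 rose, Fgfr2 (median 0.83), 7 passed with the block and DESeq2 called 4. Of these 24, 12 were higher and 1 lower at an unadjusted p under 0.05, and both D8 libraries were above D1 in 15, beside 21.6% of all genes. The keratin genes Krt8, Krt18 and Krt19 stood at 21.3 and 22.6, 12.1 and 17.5, and 1.43 and 3.1 CPM at D1 and at 41.1 and 123, 29.4 and 117, and 4.61 and 26.7 CPM at D8, most in replicate 2 (adjusted p = 0.28 for each in edgeR, and 0.042, 0.032 and 0.017 with the block). Germline genes had a median of -0.44 over 38 tested, with 31 below 0. None passed in edgeR, 6 passed with the block, 7 were lower and 2 higher at an unadjusted p under 0.05, and DESeq2 called 5. Stra8, the gene of meiotic entry, stood at 26.6 and 11.4 CPM at D1 and 4.38 and 2.06 CPM at D8 (-2.56 ± 0.51, adjusted p = 0.13 in edgeR, and 0.017 with the block), and the RNA-binding gene Dazl at 48.9 and 69.9 CPM and then 27.2 and 19.8 CPM (-1.34 ± 0.24, adjusted p = 0.094, and 0.014 with the block). Glycolysis and hypoxia genes had a median of 0.50 with 29 of 32 above 0, at 0.20 in D8 replicate 1 and 0.77 in D8 replicate 2. None passed in edgeR, 5 passed with the block, 12 were higher at an unadjusted p under 0.05, and DESeq2 called 4. Ldhb had the smallest adjusted p of them (1.28 ± 0.20, adjusted p = 0.063 in edgeR, and 0.0058 with the block). Of 39 matrix and adhesion genes none passed in edgeR (median 0.55), and 16 were higher and 1 lower at an unadjusted p under 0.05. Of 28 cholesterol synthesis genes none passed either (median 0.36), and 8 were higher and 0 lower there. Both medians were larger in D8 replicate 2 (0.77 and 0.57) than in D8 replicate 1 (0.15 and 0.14). Interferon and antigen presentation genes had a median of 0.44 over 27 tested. None passed in edgeR, 3 passed with the block, 9 were higher at an unadjusted p under 0.05, and DESeq2 called 3. B2m stood at 8.74 and 11.1 CPM and then 17.2 and 25.6 CPM (1.11 ± 0.26, adjusted p = 0.18 in edgeR, and 0.012 with the block), and Gbp2 at 0.0478 and 0.372 CPM and then 1.08 and 5.66 CPM (3.83 ± 0.94, adjusted p = 0.19, and 0.0072 with the block). Of 43 imprinted genes tested, 3 passed with the block, and 7 were higher and 2 lower at an unadjusted p under 0.05. Imprinted genes had a median of -0.00. They held H19 at 5.4 and 5.03 CPM at D1 and 10.8 and 66.2 CPM at D8 (2.89 ± 0.91, adjusted p = 0.29 in edgeR) and Meg3 at 0.64 ± 0.30 (adjusted p = 0.44). Among 14 fibroblast genes the 1 that rose, with or without the block, was Pdgfra, which is also an endoderm gene. The median of these 14 was 0.67 with 11 above 0, 4 were higher and 1 lower at an unadjusted p under 0.05, and DESeq2 called 2. In the lists of the cell cycle (36 tested, median 0.06), p53 targets (32 tested, median 0.25) and heat shock and unfolded protein response (28 tested, median 0.10) edgeR called none. At an unadjusted p under 0.05 these lists held 2, 9 and 2 genes, DESeq2 called 1, 1 and 0, and 1, 3 and 0 passed with the block.

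**Figure D5:**
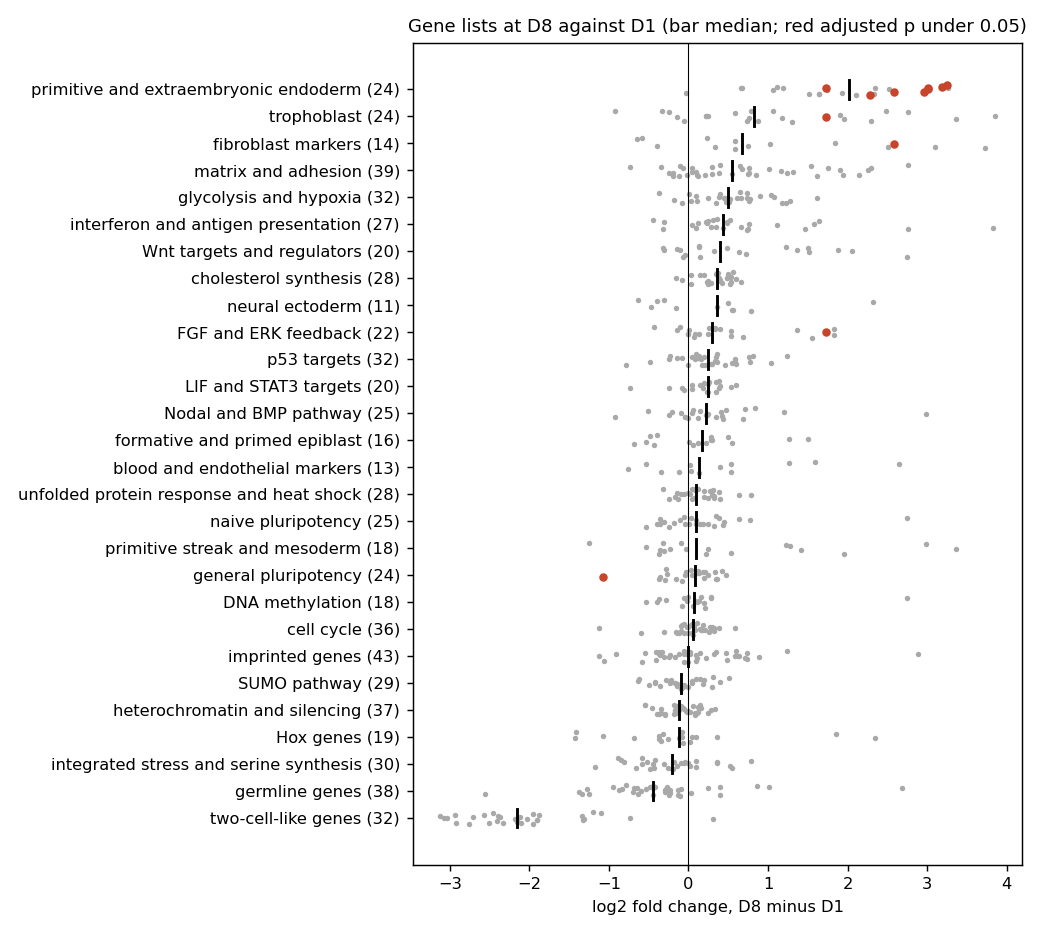
Log2 fold change of D8 over D1 (horizontal axis) for the tested members of the 28 gene lists, 1 point per gene, red at an adjusted p under 0.05, with a bar at each list median and the number tested in brackets. The endoderm list lies highest at 2.02 and the 2-cell-like list lowest at -2.15.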

How the data were processed

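The authors deposited unnormalized counts of reads for 36920 Ensembl genes in 1 table. Per the submitters' processing notes, bcl2fastq 2.17.1.14, STAR 2.5.0a, featureCounts and build mm10 were used; the release of the annotation, strand handling and multi-mapping settings were not found in them. Names, biotypes and coordinates came from GENCODE M21 by identifier (36901 matched). The labels say polyA RNA, the protocol a ribosome-depleted total RNA kit.

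Genes were kept by filterByExpr, scaled by TMM and fitted in edgeR 4.0.16 (R 4.3.3) by quasi-likelihood over the 8 libraries in 4 groups, which left 4 residual degrees of freedom (biological coefficient of variation 19.6%). Tests were 2-sided, adjusted by Benjamini-Hochberg over 19173 genes and called under 0.05. The SE is the log2 fold change divided by the square root of F. SDs are over 2 libraries. Replicates differed beyond sampling noise in each group. No label says what a replicate number marks. Deviations of same-numbered libraries from their group means correlated at 0.24 between D1 and D8 and at 0.101 to 0.498 over the 6 pairs of groups, all over 0.1, so the pairing comes from the data and the fit with the number as a block is given beside results it changes. DESeq2 1.42.0 was an alternative. The procedure was also run on simulated counts, which held no GC trend and no replicate effect. That run therefore cannot say how such effects bear on the calls. Where 2 identifiers shared a symbol, the one with more reads kept it.

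Members and the 28 gene lists were chosen with earlier results of these data known. The rule for named genes took, among called genes with a mean of at least 1 CPM and no overlap, the 12 largest rises and falls without predicted or clone names, up to 4 called members per list, and a fixed set. The 13 called genes outside it, and members of lists that did not pass, were named after their values were seen. GC content and length were corrected by a smooth offset per library. Items withheld for evaluation are not reported here.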

Additional observations from a re-analysis of the deposited data

How the results depend on the processing

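The 34 genes of D8 against D1 kept their direction under all 17 alternatives, as genes without overlap between the groups largely must. The number called moved. It was 33 with DESeq2's size factors in edgeR. With no filter on low counts it was 973 (630 higher, 343 lower), with 20 endoderm genes higher and 25 2-cell-like genes lower. A stricter filter gave 21 (3 lower), with 5 endoderm genes. A fit of the D1 and D8 libraries alone gave 2, both higher and both endoderm genes, and 0 lower. Correction for GC content and length gave 84 (67 higher, 17 lower) and DESeq2 434 (284 higher, 150 lower), with 20 endoderm genes higher and 15 2-cell-like genes lower by DESeq2. Over the fits that left out 1 library the number called ran from 0 to 436, higher from 0 to 275, lower from 0 to 161, endoderm genes higher from 0 to 18 and 2-cell-like genes lower from 0 to 4. The cause of these differences was not tested.

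With the replicate number as a replicate block, 535 genes were called (403 higher, 132 lower), with 20 endoderm genes higher and 10 2-cell-like genes lower. With the block and the GC and length correction together they were 608 (391 higher, 217 lower), 20 and 5. The replicate block changed no call of D8 against D1 among the genes named here other than those given beside their values above.

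Some values that did not pass changed sign. With the GC and length correction Pou5f1 was -0.14 and Sumo2 0.01; with the block as well they were -0.14 and 0.01, and Klf4 -0.01. Over the fits that left out 1 library, Pou5f1 ran from -0.12 to 0.23 (-0.12 without D1 replicate 1, -0.03 without D8 replicate 2), Sumo2 from -0.46 to 0.02, Atf7ip from -0.08 to 0.37, Fgf4 from -0.27 to 0.06, Nid1 from -0.23 to 0.20 (0.02 without D8 replicate 2), Sae1 from -0.01 to 0.35, Acta2 from -0.72 to 4.70 and Tagln from -0.71 to 2.71, the last pair lowest without D8 replicate 2. Dab2 at D3 against D1 ran from -0.17 to 0.75.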

Other observations

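Across chromosomes the median log2 fold change of D8 over D1 ran from -0.11 on chromosome 13 to 0.10 on chromosome 11 among autosomes, and it was -0.11 on X. With the GC and length correction the medians of chromosomes 13, 11 and X were -0.05, 0.02 and -0.01. The autosomes then ran from -0.09 on chromosome 8 to 0.09 on chromosome 6. Chromosome 15 held 5 of the 27 risen genes among its 732 tested genes, beside 0.141% risen over all genes tested. Chromosome 4 held 2 of the 7 that fell among its 1191 tested genes, beside 0.0365% over all. These were Zfp600 and Zfp981, described above. No chromosome was tested as such.

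By gene type, the median was 0.04 over 14693 coding genes, -0.20 over 702 lincRNAs, -0.34 over 1358 processed pseudogenes and -0.57 over 118 unprocessed pseudogenes. After the correction the last pair were -0.29 and -0.37. Reads of pseudogenes and of their parent genes can be split by the counting, so these levels are less certain than the rest.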
